A study of Homo sapiens with 8 samples.

Results

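The IL-6 receptor, JAK and STAT3 axis was followed as a set of 10 genes chosen by name for their role: IL6, IL6R, IL6ST, JAK1, JAK2, STAT3, SOCS1, SOCS3, PIM1 and PIM2. All 10 were among the 18564 genes of the expression table, 7 of them had enough reads to be tested among 13896 genes, and IL6, SOCS1 and SOCS3 fell below the count filter. The cells were LP-1, a human multiple myeloma line, either wild type (WT) or bortezomib-resistant (BR) after 2 months of culture with bortezomib, a proteasome inhibitor used against myeloma. Both lines received the solvent DMSO (vehicle) or SI-2, an inhibitor of the coactivator SRC-3, at 25 nM for 24 h before RNA was sequenced. There were 2 libraries in each of the 4 conditions (WT vehicle, WT SI-2, BR vehicle, BR SI-2). The labels call the WT vehicle libraries untreated in a further field, and no label says that BR cells were kept in bortezomib during the SI-2 treatment. BR is 1 resistant line beside 1 parental line, whether it is 1 clone is not given in the sources used here, and the study describes the libraries of BR cells as biologically independent experiments. The same is not given for WT in the sources used here, where the spread between libraries may be technical only.

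IL-6 is a growth and survival factor for plasma cells and for many myelomas, and stromal cells of the bone marrow are a main source of it. It binds IL6R, a receptor chain with no signalling activity of its own, and the pair recruits IL6ST, known as gp130, which is shared by nearly all cytokines of the family. JAK kinases held on gp130 then phosphorylate STAT3, which moves to the nucleus and turns on survival genes, among them the PIM kinases, and its own inhibitors SOCS1 and SOCS3, which bind the JAKs and the receptor and shut the signal off. These libraries measure RNA only, so neither phosphorylated STAT3 nor any protein was measured here.

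The libraries held 17997771 to 18570027 estimated counts. The label B lymphoblast was compared with marker genes: JCHAIN (3354 FPKM), XBP1 (496.7), MZB1 (444.4) and TNFRSF17, all plasma cell genes, were high. Of the other plasma cell markers, IRF4 (175.1 FPKM), PRDM1 (49.6) and CD38 (41.4) were expressed, and SDC1 (7.79), CD27 (1.94) and SLAMF7 (0.421) were lower. Of the B cell genes, MS4A1, PAX5 and CD22 were near 0 and BLK (12.6 FPKM) and CR2 (1.45 FPKM) were expressed. FPKM scales a count by transcript length and library size and is the unit used here for levels. Replicate 2 of BR SI-2 stood apart. Its 6 stromal cell markers, led by the collagens COL1A1 and COL3A1, summed to 128.2 CPM (counts scaled to library size), against 0.278 to 0.739 in the other 7 libraries, and 126 genes had at least 20 counts there and at most 5 in every other library, against 0 or 1 gene for each of the others. Markers of T cells (0.50 to 1.77 summed CPM) and of myeloid cells (2.86 to 5.25) were low in all 8 libraries.

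The axis genes covered a wide range of RNA levels, and their order was nearly fixed. PIM2 was highest at 514 FPKM ± 48.2 (SD over the 8 libraries), rank 126 of all genes, followed by PIM1 at 140.6 ± 12.9, IL6ST at 112 ± 16.4, IL6R at 46.6 ± 5.67, JAK1 at 22.1 ± 1.25, STAT3 at 14.4 ± 1.0 and JAK2 at 1.59 ± 0.463. The ranges of neighbours in this order did not overlap, except that PIM1 was above IL6ST in 7 of 8 libraries. SOCS3, SOCS1 and IL6 lay at the bottom, with means of 0.09, 0.07 and 0.0375 FPKM, and their order among themselves was not separated. The mRNAs of both PIM kinases, products of STAT3 target genes, were thus in the top few percent of genes (PIM2 at or above 99.3% and PIM1 at or above 97.6% of them), while the inhibitors SOCS1 and SOCS3 were near the detection limit in the same cells.

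**Figure D1:**
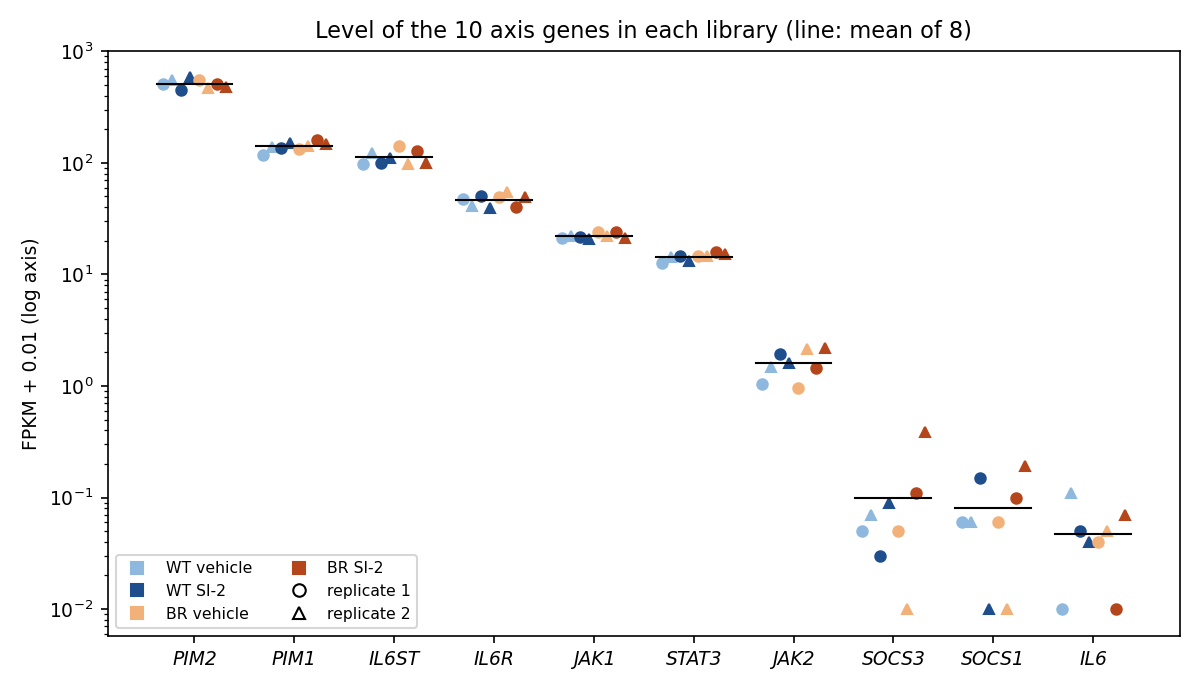
FPKM plus 0.01 on a log axis for each of the 10 axis genes, with 1 point per library (colour for the condition, circle or triangle for replicate 1 or 2) and a line at the mean of the 8 libraries. PIM2 sits between 450.5 and 585 FPKM, STAT3 between 12.7 and 15.8, and no library of IL6, SOCS1 or SOCS3 exceeds 0.38.

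IL6 itself, the ligand, was barely detected. Its estimated count was 0 and 2.64 in WT vehicle, 1.4 and 1.06 in WT with SI-2, 1.01 and 1.57 in BR vehicle, and 0 and 1 in BR with SI-2, so no library exceeded the floor of 3 counts used here as the limit of a count of 0. At this depth 3 counts correspond to 0.162 to 0.167 CPM, and no difference between conditions was detectable. This limit covers counting error only. The other cytokines of the family, which mostly signal through gp130 with their own receptor chains, were also low: 8 of the 10 listed were in the table, only CNTF (1.02 FPKM) and IL11 (0.694) passed the count filter, and neither was called in any comparison. CNTF had a log2 difference of 0.39 for BR against WT (95% interval -0.10 to 0.88, adjusted p = 0.552 by edgeR).

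The receptor chains were both abundant, with 2.41 times more IL6ST than IL6R RNA by mean FPKM. IL6R, the ligand-binding chain, read 47.4 and 41.2 FPKM in WT vehicle, 50.2 and 39.5 in WT with SI-2, 49.8 and 55.2 in BR vehicle and 40.3 and 49.5 in BR SI-2. The WT and BR values overlapped, as did those with and without SI-2. IL6ST, the signalling chain, read 98.3 and 122 FPKM in WT vehicle, 99.1 and 110.5 in WT with SI-2, 140.5 and 98.4 in BR vehicle and 128.8 and 100.1 in BR SI-2. Its highest values were the replicate 1 libraries of BR cells, while replicate 2 of BR cells lay near the lowest WT values.

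Among the other receptor chains of the family and the 2 sheddases that cut IL6R from the membrane, 7 of 8 genes were tested. For BR against WT 0 were called, beside 0.13% of all tested genes, and 1 had an unadjusted p under 0.05 by edgeR, beside 10.2%. ADAM10, a sheddase, was the highest at 74.1 FPKM, with 54.7 to 75.5 in WT and 80.3 to 90.1 in BR cells, and IL27RA, the IL-27 receptor chain, followed at 17.3. LIFR (1.68 FPKM), OSMR (0.26) and CNTFR, through which LIF, oncostatin M and CNTF signal, were low or near 0. ADAM10 was higher in BR cells by 0.38 in log2 units (95% interval 0.10 to 0.66), and its WT and BR libraries did not overlap, beside 8.08% of all tested genes in either direction, but it did not pass the test over all genes (adjusted p = 0.384 by edgeR). IL31RA had the largest difference of these 7, with -0.56 (-1.63 to 0.51).

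At the level of transcripts, 7 models of IL6R and 6 of IL6ST shared the reads. The full-length receptor of 468 residues took 22.9 to 31.8% of the IL6R transcript FPKM, and the splice form of 365 residues, which lacks the membrane span and is secreted, took 0 to 14.5%, being at 0 in both WT vehicle libraries. For IL6ST, a predicted coding model took 47.5 to 56.4% and a predicted non-coding one 36.2 to 46.4%, whereas the curated 918-residue form took 0 to 0.570% and the short soluble form of 329 residues 0 to 2.21%. Such shares are estimates from reads that most models of a gene have in common, so they describe how the counting divided reads. For STAT3, 11 models shared the reads, and the beta form, which ends in a short C-terminus without the main transactivation domain, took 11.6 to 30.4%, with a mean of 23.3% in WT and 23.2% in BR cells.

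JAK1, the kinase gp130 depends on most, was the steadiest axis gene. It read 21.4 and 22.2 FPKM in WT vehicle, 21.5 and 20.8 in WT with SI-2, 23.8 and 22.0 in BR vehicle and 24.2 and 21.2 in BR with SI-2, so the highest library was 1.16 times the lowest. JAK2, a kinase used by gp130 and by many other cytokine receptors, was 13.9 times lower than JAK1 by mean FPKM and the most variable of the tested members. Its values were 1.04 and 1.46 FPKM in WT vehicle, 1.93 and 1.60 in WT with SI-2, 0.95 and 2.14 in BR vehicle and 1.45 and 2.17 in BR SI-2, a 2.28-fold range. In BR cells both high values were replicate 2, and in WT cells the 2 SI-2 values were above the 2 vehicle values.

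STAT3, the transcription factor of the axis, read 12.7 and 14.2 FPKM in WT vehicle, 14.7 and 13.2 in WT with SI-2, 14.6 and 14.6 in BR vehicle and 15.8 and 15.2 in BR SI-2. The BR values reached slightly higher, and they overlapped the WT values. The 3 genes whose log2 CPM followed that of STAT3 most closely over the 8 libraries, of 9358 with a mean CPM of at least 10, were NUP98 (Pearson r = 0.958), ZFX (0.954) and RSBN1 (0.951). These 8 points share line, treatment and replicate number, and the 3 genes are the top of a ranking over all genes, so the values are a description only.

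STAT3 was not the main STAT by RNA level. Of the other JAK kinases and STAT factors, 7 of 8 were tested, with STAT2 highest at 70.3 FPKM and STAT6 next at 42.8. For BR against WT 0 were called, beside 0.13% of all tested genes, and 2 had an unadjusted p under 0.05 by edgeR, beside 10.2%. STAT2, a factor of the type I interferon response, ranged over 78.1 to 82.0 FPKM in WT and 56.1 to 63.2 in BR cells and was 0.43 lower in BR cells on the log2 scale (95% interval -0.66 to -0.20, adjusted p = 0.245 by edgeR, 0.0313 by DESeq2). The WT and BR libraries of STAT2 did not overlap either.

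The inhibitors of the axis were near the detection limit as RNA. SOCS1 had 1 and 1 estimated counts in WT vehicle, 3 and 0 in WT with SI-2, 1 and 0 in BR vehicle and 2 and 4 in BR with SI-2, so 1 library exceeded 3 counts. SOCS3 had 2 and 3 counts in WT vehicle, 1 and 4 in WT with SI-2, 2 and 0 in BR vehicle and 5 and 19 in BR SI-2. The 19 counts belong to the library with the stromal cell markers. Over the 4 BR libraries SOCS3 had 26 counts, against 10 in the 4 WT libraries, and without that library the other 3 BR libraries had 7. The part of the stromal signal in the SOCS3 value was not tested. Of the 30 known STAT3 target genes listed, 8 were highest in this library and 5 lowest, XBP1 among the latter. Of 31 receptors that signal through JAKs for other cytokines, 8 were highest and 1 lowest there. The share of all tested genes at either extreme in this library was not counted, so nothing is drawn from these counts. The summed CPM of the STAT3 target list was the lowest there (6393). Among the genes at or near 0 elsewhere, CEBPD had 31.1 counts in this library and at most 1.01 elsewhere, and LIF 12 and at most 1. The acute-phase gene LBP had 11 and 0, while IL6 had 1 count there. Genes of other lists did the same. IL20RA, a receptor chain for another cytokine, had 10 counts there and 0 elsewhere. PSAT1, an amino acid response gene, had 35 and at most 6.

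**Figure D2:**
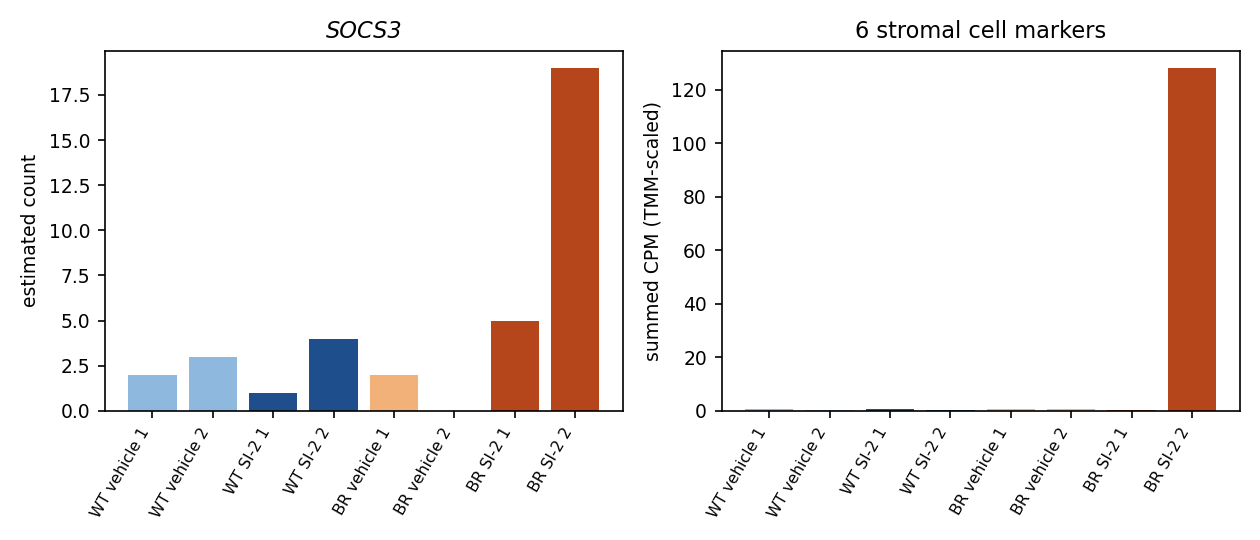
Left, estimated counts of SOCS3 in each library; right, the summed TMM-scaled CPM of 6 stromal cell markers, with bars coloured by condition. Replicate 2 of BR SI-2 holds both the highest SOCS3 count, 19, and the highest marker sum, 128.2.

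To set these low inhibitors beside the high PIM kinases, the 250 bases before their annotated start sites are shown, taken from RefSeq on GRCh38.p14, with every CG in capitals, since CG density is a common feature of promoters that can be active in many tissues. Windows are PIM1 at chr6:37169902-37170151 on the plus strand, PIM2 at chrX:48919025-48919274, SOCS1 at chr16:11256205-11256454 and SOCS3 at chr17:78360926-78361175, the last 3 on the minus strand, and for SOCS3 the first of 2 start sites. They lie upstream of the gene, outside its exons.
PIM1: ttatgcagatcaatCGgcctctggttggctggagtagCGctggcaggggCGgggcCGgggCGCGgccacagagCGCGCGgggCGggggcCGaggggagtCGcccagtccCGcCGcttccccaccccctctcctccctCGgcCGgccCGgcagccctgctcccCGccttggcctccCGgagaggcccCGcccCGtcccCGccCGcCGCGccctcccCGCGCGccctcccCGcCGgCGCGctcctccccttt
PIM2: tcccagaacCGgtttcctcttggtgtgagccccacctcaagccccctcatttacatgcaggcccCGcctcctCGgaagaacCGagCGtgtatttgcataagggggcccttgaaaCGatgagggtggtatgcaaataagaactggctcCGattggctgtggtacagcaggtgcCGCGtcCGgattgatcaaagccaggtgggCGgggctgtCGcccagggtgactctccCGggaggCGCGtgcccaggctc
SOCS1: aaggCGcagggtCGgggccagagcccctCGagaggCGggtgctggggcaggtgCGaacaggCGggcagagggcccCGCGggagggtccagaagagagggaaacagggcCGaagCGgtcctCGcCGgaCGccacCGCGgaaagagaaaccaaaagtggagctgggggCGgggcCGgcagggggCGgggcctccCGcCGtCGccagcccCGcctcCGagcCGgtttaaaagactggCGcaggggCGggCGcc
SOCS3: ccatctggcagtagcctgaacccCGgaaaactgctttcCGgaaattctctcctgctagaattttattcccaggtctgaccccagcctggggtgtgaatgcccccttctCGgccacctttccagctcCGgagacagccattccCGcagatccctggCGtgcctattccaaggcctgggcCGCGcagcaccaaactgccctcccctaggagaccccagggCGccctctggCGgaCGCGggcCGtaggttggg

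The CG count did not follow the RNA level. PIM1 had 32 CG in its window and SOCS1, at 0.07 FPKM, had 27, while PIM2, the highest of the axis, had 15 and SOCS3 had 13 at the start site shown and 30 at its other one, against a median of 11 over the 35116 windows of the reference. The palindrome TTCNNNGAA, the letters to which STAT dimers are known to bind, was searched in the 300 bases from 250 before to 50 after each start site, where both strands read alike. It was in 0 of the 16 windows of the 10 axis genes and in 7.66% of all windows. No match says only that these letters are not in these windows.

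For contrast, CISH, an inhibitor of the same family as the SOCS proteins and a known STAT5 target, is shown because its window, chr3:50611775-50612024 on the minus strand, held 4 matches, in capitals below, starting 241, 230, 129 and 112 bases before the start site. At least 4 matches were found in 0.0199% of all windows.
CISH: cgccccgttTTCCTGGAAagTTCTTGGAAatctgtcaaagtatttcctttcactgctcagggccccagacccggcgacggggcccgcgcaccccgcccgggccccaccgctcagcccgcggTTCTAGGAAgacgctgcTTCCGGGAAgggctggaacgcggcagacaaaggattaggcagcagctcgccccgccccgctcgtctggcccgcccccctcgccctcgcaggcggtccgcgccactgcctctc
CISH, chosen here for its sequence and not for its change, had a mean RNA level of 0.27 FPKM.

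SOCS2 (12.7 FPKM) and SOCS4 (11.9), other members of the SOCS family, and the phosphatases PTPN1 (32.8) and PTPN2 (22.8), which remove phosphate from JAKs and STATs, had more RNA than SOCS1 or SOCS3. All 17 listed inhibitors outside the axis were tested. For BR against WT 0 were called, beside 0.13% of all tested genes, and 1 had an unadjusted p under 0.05 by edgeR, beside 10.2%. PTPRT, a receptor phosphatase for STAT3, had the largest difference at 1.55 on the log2 scale (0.78 to 2.32, adjusted p = 0.214 by edgeR), from 3 to 7 counts in WT and 11 to 17 in BR cells.

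The PIM kinases, which promote survival and protein synthesis in myeloma cells, were the most abundant RNAs of the axis. PIM1 read 117 and 137 FPKM in WT vehicle, 137 and 149 in WT with SI-2, 133 and 143 in BR vehicle and 161 and 147 in BR SI-2. The lowest library was WT vehicle replicate 1 and the highest BR SI-2 replicate 1, with the other 6 between them. PIM2 read 507 and 554 FPKM in WT vehicle, 450.5 and 585 in WT with SI-2, 558 and 468 in BR vehicle and 515 and 475 in BR SI-2. Neither line nor treatment set its values apart. The 2 transcripts of PIM1 were given exactly equal FPKM in every library, so they could not be told apart.

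Resistance was the first comparison: does the axis differ between BR and WT cells? None of the 7 tested axis genes passed the test. Of all tested genes, 0.13% were called for BR against WT over both treatments (18 genes, adjusted p under 0.05 by edgeR), and of the axis 0 of 7, with 0 of 7 by DESeq2 and 0 of 7 by limma. At an unadjusted p under 0.05 by edgeR there were also 0 of 7, beside 10.2% of all tested genes. The largest difference was that of JAK2, 0.16 on the log2 scale (95% interval -0.41 to 0.73), followed by STAT3 at 0.13 (-0.11 to 0.38), IL6ST at 0.10 (-0.26 to 0.47), IL6R at 0.10 (-0.17 to 0.36), PIM1 at 0.08 (-0.17 to 0.33), JAK1 at 0.06 (-0.20 to 0.32) and PIM2 at -0.08 (-0.38 to 0.21). Adjusted p-values ran from 0.682 to 0.868 by edgeR. The median over the 7 genes was 0.10, beside 0.00 over all tested genes. Without BR SI-2 replicate 2, the library with the stromal markers, the differences ran from -0.03 (PIM2) to 0.21 (IL6ST), and 3 genes of all tested were called. With 1 library left out at a time, the direction turned for IL6ST (without BR vehicle replicate 1 or BR SI-2 replicate 1), JAK1 (BR SI-2 replicate 1), JAK2 (BR vehicle replicate 2) and PIM2 (WT SI-2 replicate 2).

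Each interval covers 1 gene, with no adjustment over the 7. For this 1 BR and 1 WT line, the intervals give the size of a change that could have been missed. Over the 7 genes they reached from 0.751-fold to 1.66-fold, the widest being that of JAK2, and for STAT3 from 0.927-fold to 1.30-fold. In vehicle alone, with 2 libraries a side, the differences ran from -0.07 to 0.32 on the log2 scale, and 0 of 7 axis genes were called, beside 0% of all genes, and 0 of 7 had an unadjusted p under 0.05 by edgeR, beside 3.89%. For 0 of 7 axis genes did the 4 BR libraries lie apart from the 4 WT libraries, beside 8.08% of all tested genes.

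SI-2 was the second comparison. Over both lines, JAK2 was 0.35 higher with SI-2 on the log2 scale (-0.23 to 0.92), PIM1 0.14 (-0.11 to 0.39) and STAT3 0.06 (-0.18 to 0.31), while JAK1 was at -0.05 (-0.31 to 0.21), PIM2 at -0.06 (-0.36 to 0.23), IL6ST at -0.09 (-0.46 to 0.28) and IL6R at -0.13 (-0.40 to 0.14). None passed the test, with 0 of 7 called by edgeR, DESeq2 and limma, and 0% of all genes called. At an unadjusted p under 0.05 by edgeR there were 0 of 7, beside 1.87% of all tested genes. The median of the 7 was -0.05, beside 0.00 over all genes. Without BR SI-2 replicate 2 the differences ran from -0.17 (IL6R) to 0.22 (JAK2), and IL6ST and JAK1 turned to 0.013 and 0.022. The direction also turned for IL6ST without BR vehicle replicate 1 and for PIM2 without WT SI-2 replicate 1 or BR vehicle replicate 1. JAK2 stood at 0.68 without BR vehicle replicate 2 (adjusted p = 0.795 by edgeR). The 4 SI-2 libraries lay apart from the 4 vehicle libraries for 0 of 7 axis genes, beside 1.45% of all tested genes.

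Within WT cells the effect of SI-2 on the 7 genes ran from -0.09 to 0.50 on the log2 scale, and within BR cells from -0.26 to 0.19. In each, 0 of 7 axis genes were called, beside 0% of all genes, and 0 of 7 had an unadjusted p under 0.05 by edgeR, beside 0.533% in WT and 1.2% in BR cells. The difference between the lines in the response to SI-2, tested as an interaction, ran from -0.32 for JAK2 to 0.02 for JAK1, again with 0 of 7 called beside 0% of all genes and 0 of 7 at an unadjusted p under 0.05 by edgeR beside 0.533%. Its intervals reached from 0.364-fold to 1.77-fold, so a line-dependent response within that range could have been missed with 2 libraries a condition.

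**Figure D3:**
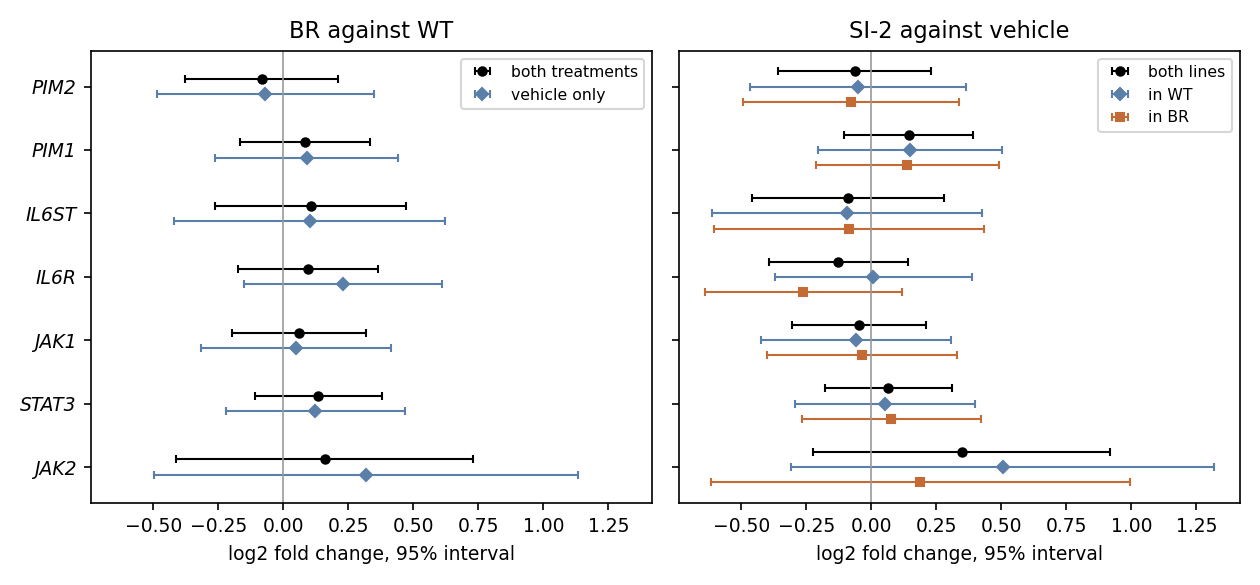
Log2 fold changes of the 7 tested axis genes with 95% intervals from the edgeR fit, for BR against WT (left; both treatments or vehicle only) and SI-2 against vehicle (right; both lines, WT or BR). Every interval crosses 0, and those of JAK2 are the widest.

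The difference between lines was not alike in the 2 replicate numbers for several axis genes. IL6ST was 1.38-fold higher in BR than in WT cells in replicate 1 (1111 and 1003 against 773.8 and 754.5 CPM) and 0.815-fold in replicate 2 (735.4 and 735.9 against 948.0 and 859.1 CPM), with no overlap in either. PIM2 did the same, at 1.14-fold in replicate 1 and 0.783-fold in replicate 2. IL6ST and PIM2 were thus 2 of the 7 tested axis genes that lay apart by line in opposite directions, beside 11.2% of all tested genes. The averages over both replicate numbers given above are therefore means of opposed differences for these genes.

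STAT3 kept its direction, with 1.15-fold in replicate 1 and 1.04-fold in replicate 2, and no overlap within either. In replicate 2 the lines were nearly level in vehicle, at 67.7 CPM in BR and 67.2 in WT cells. Each replicate number sets 2 libraries beside 2. The share of all tested genes apart in the same direction in both numbers was not counted. IL6R was at 0.938-fold in replicate 1 and 1.22-fold in replicate 2, and JAK2 at 0.863-fold and 1.33-fold. JAK1 was at 1.14-fold and 0.947-fold and PIM1 at 1.17-fold and 0.958-fold. Over all conditions JAK2 was 0.46 higher in replicate 2 than in replicate 1 on the log2 scale (-0.02 to 0.93), the largest such difference of the axis, and it was not called (adjusted p = 0.321 by edgeR). For replicate number, 0 of 7 axis genes had an unadjusted p under 0.05 by edgeR, beside 16.5% of all tested genes. What the replicate numbers stand for is not given in the sources used here.

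**Figure D4:**
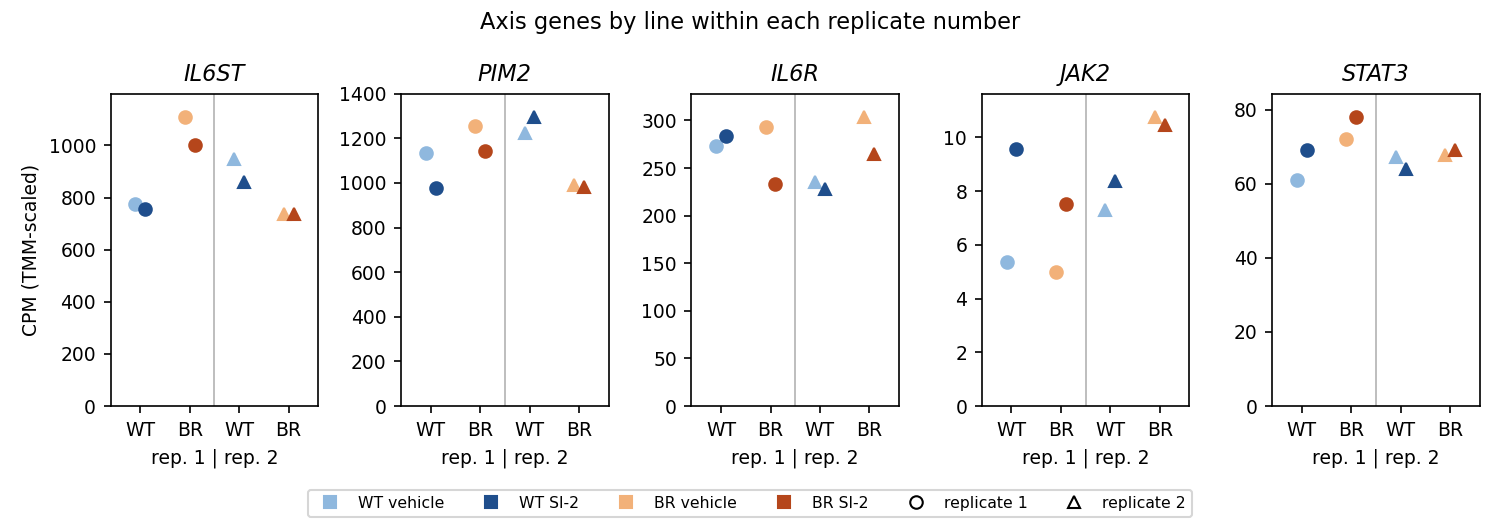
TMM-scaled CPM of 5 axis genes by line, with replicate 1 to the left and replicate 2 to the right of the grey line, and 1 point per library coloured by condition. IL6ST and PIM2 are higher in BR in replicate 1 and lower in replicate 2. STAT3 is higher in BR in replicate 1, and in replicate 2 its vehicle libraries are nearly level.

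The amino acid response genes, a set turned on by ATF4 in stressed cells, varied beside PIM2. Their summed CPM was 3105 and 4195 in WT vehicle, 2531 and 3898 in WT with SI-2, 2959 and 1880 in BR vehicle and 2500 and 1752 in BR with SI-2, so that WT and BR were close in replicate 1 and far apart in replicate 2. All 13 tested genes of this list had a lower value in BR cells, with a median of -0.57 on the log2 scale. Of these, 0 were called, beside 0.13% of all tested genes, and 7 had an unadjusted p under 0.05 by edgeR, beside 10.2%. Its part in the PIM2 and IL6ST values was not tested.

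Downstream of STAT3, 30 known target genes outside the axis were listed. A mean FPKM of at least 1 was reached by 19 of them, beside 11128 of all 18564 genes. Tested were 24 of the 30, beside 13896 of all 18564 genes. Of these 24, 13 had a higher and 11 a lower value in BR cells. Among the 24, 0 were called, beside 0.13% of all tested genes, and 4 had an unadjusted p under 0.05 by edgeR, beside 10.2%. Their median was 0.04 on the log2 scale. XBP1, which drives the secretory programme of plasma cells, was highest at 496.7 FPKM, and MCL1, an inhibitor of apoptosis on which myeloma cells depend, followed at 413 ± 111 (SD, n = 8). FOS, an immediate-early factor, had the largest difference at -1.24 (-2.11 to -0.37, adjusted p = 0.362 by edgeR), from 33 to 54 counts in WT and 8 to 31 in BR cells. For SI-2 against vehicle over both lines, 16 of the 24 had a higher and 8 a lower value, and 0 were called, beside 0% of all genes.

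All 18 adaptors that link gp130 to the RAS and PI3K pathways were tested. They had 9 higher and 9 lower values in BR cells, with a median of 0.01 on the log2 scale. For BR against WT 0 were called, beside 0.13% of all tested genes, and 1 had an unadjusted p under 0.05 by edgeR, beside 10.2%. MAP2K2, a kinase of the MAPK cascade, was highest at 93.8 FPKM, SHC1, an adaptor protein, followed at 82.3, and GAB2, a docking protein, had the largest difference at -0.53 (-0.89 to -0.17, adjusted p = 0.361 by edgeR).

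Of the receptors that signal through JAKs for other cytokines, 23 of the 31 in the table were tested. For BR against WT 0 were called, beside 0.13% of all tested genes, and 3 had an unadjusted p under 0.05 by edgeR, beside 10.2%. IL2RG, the common chain of the IL-2 family of receptors, stood at 130.0 FPKM beside 112 for IL6ST, and IFNAR1, a chain of the type I interferon receptor, followed at 30.2. IL22RA1, a chain of the IL-22 receptor that epithelial cells use, was the nearest to a call: 29 to 56 estimated counts in WT and 6 to 19 in BR cells, a log2 difference of -1.97 (-2.65 to -1.28, adjusted p = 0.0588 by edgeR). It passed with DESeq2 (0.00294), with no count filter (0.0362) and with 2 groups of 4 libraries (0.0314), and with each library left out in turn its adjusted p was 0.110 to 0.431. At 0.492 FPKM it was a low RNA next to IL6R.

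**Figure D5:**
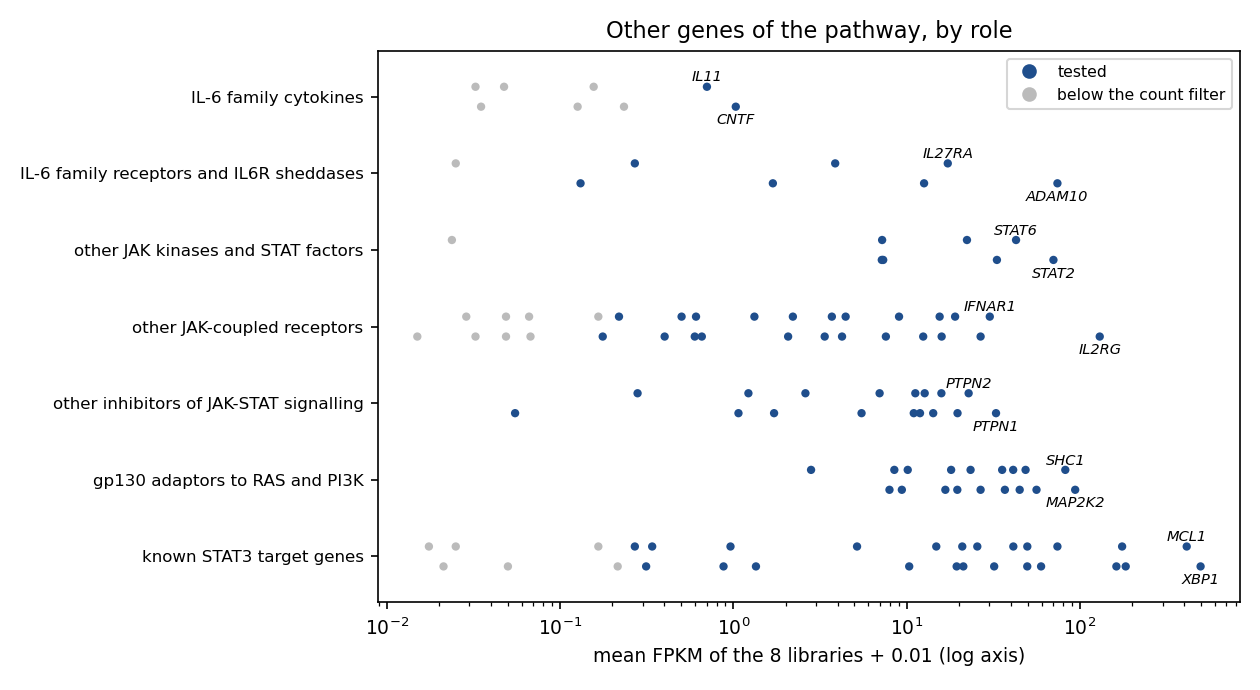
Mean FPKM of the 8 libraries plus 0.01, on a log axis, for the other genes of the pathway in 7 lists by role, with tested genes in blue, genes below the count filter in grey and the 2 highest of each list named. The cytokines lie at or below 1.02 FPKM, and the highest target genes, XBP1 and MCL1, at 496.7 and 413.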

How the data were processed

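RNA of LP-1 cells (WT or BR, vehicle or SI-2) was sequenced on the BGISEQ-500 platform after removal of low-quality reads. The authors deposited, per gene and per transcript, estimated counts, which need not be whole because shared reads are divided, and FPKM. Per the labels, the submitters' processing notes name BWA, Bowtie2, RSEM and the build hg19, with no version. The deposited tables of the authors' own comparisons (DEGseq fold changes, p-values and q-values) and the columns of condition means were not used. Antisense and overlapping genes may share reads, since strand is not given in the sources used here.

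Conditions were taken from the sample titles. The estimated counts were rounded, filtered with filterByExpr by condition (13896 of 18564 genes), scaled by TMM (factors 0.971 to 1.058) and tested in 1 edgeR 4.0.16 quasi-likelihood fit over the 4 conditions, with Benjamini-Hochberg adjustment over all tested genes and a threshold of 0.05. The residual degrees of freedom were 4 and the biological coefficient of variation 0.179. Log2 fold changes are BR minus WT or SI-2 minus vehicle. Intervals of 95% came from the fit's F statistic and its moderated degrees of freedom. CPM are TMM-scaled. Alternatives were upper-quartile scaling, library size only, no filter, a filter on CPM (at least 1 in at least 2 libraries), DESeq2 1.42.0, limma 3.58.1 on log2(FPKM + 1) and log2(FPKM + 0.1), 2 groups of 4 libraries, a replicate block and each library left out. The fit was checked on simulated data. Each library held 17997771 to 18570027 counts, and a floor of 3 counts covers counting error only.

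The 10 genes, the lists and the tests were chosen with earlier results of these data known. From each list the text names the 2 genes with the highest mean FPKM, any called gene and the largest BR against WT difference. Others were named after their values were seen: LIFR, OSMR, CNTFR, SOCS2, SOCS4, CISH, CEBPD, LIF, LBP, IL20RA, PSAT1 and the B cell genes. So were the plasma cell genes TNFRSF17, IRF4, PRDM1, CD38, SDC1, CD27 and SLAMF7. Residue counts come from GENCODE v29 transcripts matched to the RefSeq identifiers, and promoter windows from RefSeq on GRCh38.p14. Since the counts were made on another build, no coordinates are given for them. Protein sequences were not analysed here. Some genes that the rule names are not reported here.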

Additional observations from a re-analysis of the deposited data

Results flagged for a closer look

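Of 40 groups of 4 libraries (10 axis genes in WT, BR, vehicle and SI-2 libraries), 4 had a highest or lowest library far from the other 3. Chance flags about 1 in 20 groups where groups are independent and values continuous. These groups share libraries and mix conditions, so nothing is drawn from 4 of 40 beside that rate. PIM1 stood at 444.7 CPM in BR SI-2 replicate 1, with the other BR libraries at 372 to 379, and at 326.2 CPM in WT vehicle replicate 1, with the other vehicle libraries at 372 to 378. For IL6, BR SI-2 replicate 1 was at 0 CPM, with the other SI-2 libraries at 0.052 to 0.056. For SOCS1, BR vehicle replicate 2 was at 0 CPM, with the other vehicle libraries at 0.055 to 0.057. In IL6 and SOCS1 these gaps are about 1 read.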

How the results depend on the processing

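The 7 tested axis genes had 574 values under the alternatives over 5 comparisons. In 541 the direction was kept, in 33 it reversed, and 0 passed the threshold, with a lowest adjusted p of 0.509. The reversals came with a library left out in 32 cases, and the other was IL6R for SI-2 in WT cells under upper-quartile scaling. With each library left out, the BR against WT log2 difference ran from -0.056 (without BR vehicle replicate 1) to 0.24 (without BR vehicle replicate 2) for IL6ST, from -0.023 (without BR SI-2 replicate 1) to 0.13 for JAK1, from -0.17 (without BR vehicle replicate 2) to 0.39 for JAK2 and from -0.18 to 0.026 (without WT SI-2 replicate 2) for PIM2. The SI-2 difference over both lines ran from -0.23 to 0.067 (without BR vehicle replicate 1) for IL6ST, from -0.13 to 0.022 (without BR SI-2 replicate 2) for JAK1 and from -0.18 to 0.027 (without WT SI-2 replicate 1) for PIM2. Among the other pathway genes, IL22RA1 passed in 3 alternatives and STAT2 with DESeq2 alone.

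Counts over all genes moved more than those of the axis, which stayed at 0 in every alternative. For BR against WT over both treatments, 18 genes were called, and 37 with no filter, 161 with DESeq2, 49 with 2 groups of 4 libraries, and 1 to 16 with each library left out. In vehicle alone 0 were called, and 1 with upper-quartile scaling, 3 with no filter, 1 with the CPM filter, 28 with DESeq2, and 1 and 4 with limma on log2(FPKM + 1) and log2(FPKM + 0.1). For SI-2 over both lines 0 were called, and 2 with no filter, 2 with DESeq2 and 0 to 1 with each library left out. DESeq2 called 1 gene for SI-2 in WT, 1 in BR and 1 for the interaction, where edgeR called 0. For SI-2 in BR cells, leaving out each library gave 0 to 67 calls, 67 of them without BR SI-2 replicate 1. Replicate 2 against replicate 1 gave 0 calls, 104 with no filter, 424 with DESeq2 and 0 to 20 with each library left out. The cause was not tested.

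With the replicate block, 36 genes were called for BR against WT over both treatments and 1 in vehicle. The correlations of same-numbered libraries' deviations ran from -0.179 to 0.509 over the 6 pairs of conditions. They were highest between vehicle and SI-2 of the same line, at 0.509 in WT and 0.443 in BR cells. Across lines they ran from -0.179 to 0.207. The main fit did not take the numbers as pairs, and a pairing within each line was not fitted, which limits the SI-2 comparisons. The block, common to both lines, called 0 axis genes. Depth limits IL6, SOCS1 and SOCS3, which had too few reads to be tested.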
